A study of Mus musculus with 8 samples.

Results

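Gene expression was compared between 6 mouse colon adenomas and 2 sections of non-adenoma colon, to describe what changed in the adenomas of both of 2 models. All 8 libraries of the series entered the comparison. The ApcMin/+ model gave 3 adenomas and 1 section from untreated mice on the C57BL/6J background, killed when 110 to 120 days old, whose cells carry 1 mutant allele of Apc. The AOM/DSS model gave 3 adenomas and 1 section from C57BL/6J mice with the wild-type genotype, which were injected with 10 mg/kg of the carcinogen azoxymethane (AOM) at 6 to 7 weeks of age. These mice then drank 2% dextran sulfate sodium (DSS), a polymer that injures the colon lining, in 3 cycles, and were killed 70 days after the injection. Per the labels, the AOM/DSS adenomas carried β-catenin that resists degradation and kept wild-type Apc. The sections carry the same background as their adenomas, the Min allele in one model and the AOM and DSS exposure in the other, so no library comes from untreated wild-type colon. Each section was tissue beside the tumours. Which mouse each section or adenoma came from is not in the labels, so the adenomas of a model may share a mouse. The p-values reflect how much these libraries vary, which may be technical in part, and need not cover the spread between mice.

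In the colon, WNT signalling keeps the stem cells at the base of the crypt dividing. WNT ligands hold back a destruction complex, of which the APC protein is a part, and β-catenin then enters the nucleus and works with TCF/LEF transcription factors. Loss of APC or a β-catenin that escapes the complex turns the pathway on without a ligand, and either event can start an adenoma. Away from the crypt base, cells stop dividing and become absorptive colonocytes, mucus-making goblet cells or hormone-making enteroendocrine cells.

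Library totals ran from 18156741 to 22719895 counts. On the first principal component (42.9% of the variance) the sections were at -141 (ApcMin/+) and -90.7 (AOM/DSS). The adenomas lay between -16.4 and 64.8 on it, ApcMin/+ adenoma 3 being nearest to the sections. The second component (32.7% of the variance) set the models apart. ApcMin/+ libraries lay between -85.6 and -17.1 on it and AOM/DSS libraries between 44.3 and 88.7. Levels are given as CPM, the count scaled to a common library size (TMM-scaled). A fold change is a log2 fold change of adenomas over sections from 1 fit of all 8 libraries with model as an additive term, with its standard error (SE). A gene was called, and is said to have risen or fallen, at an adjusted p under 0.05 in edgeR's quasi-likelihood test.

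Of 17218 genes tested, 3148 rose in the adenomas (18.3% of tested genes) and 2723 fell (15.8%), together 34.1%. The median fold change was 0.91 among genes that rose, -1.28 among genes that fell and 0.073 over all tested genes. Large changes were more often decreases, with 571 genes up and 847 down by a log2 of at least 2. Genes called higher held 10.6% and 12.9% of the CPM in the sections and 21.9% to 27.4% in the adenomas. Genes called lower held 41.9% and 36.5% in the sections and 17.8% to 25.1% in the adenomas. Of the genes called higher, 99.5% had every adenoma above the section of its own model and 82.9% had all 6 adenomas above both sections, against 30.1% and 20.1% of all tested genes. Of those called lower, 99.1% had every adenoma below its own section and 85.5% had all 6 below both, against 24.2% and 17.5%. The calls were made from these same libraries, so the shares among called genes are not independent support for them. The choice of scale moved the balance between directions. Of the genes called, 53.6% were higher here, 47.1% with DESeq2-type size factors, and 69.8% or 70.1% with limma on FPKM with 1 or 0.1 added, where the median over all genes moved from 0.073 to 0.203 or 0.262.

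Each model has only 1 section, whose spread cannot be measured, and the fit assumed that sections vary like adenomas. With the ApcMin/+ section left out, 446 genes rose and 434 fell, and without the AOM/DSS section 1795 rose and 1038 fell. Under 18 other settings, these included, 507 genes kept their call throughout, 322 of them higher and 185 lower. Of 184 named genes that were called, some had a fold, taken off the log2 scale, that moved by more than 1.5 times. They numbered 43 of 182 tested without the ApcMin/+ section and 52 without the AOM/DSS section. Without ApcMin/+ adenoma 3 they numbered 17, and with any other library left out at most 6. Where the fold of a gene described below moved this much, or its call was lost, the values are given with the ApcMin/+ and then the AOM/DSS section left out.

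The models share no library, so their changes were measured apart. Across the 17218 genes, the difference of the mean of 3 adenomas from the section of their model, on log2(CPM + 0.5), had a Pearson correlation of 0.692 and a Spearman correlation of 0.649 between models. These are across genes, which are not independent replicates. The difference had the same sign in both models for 76.1% of genes. Of 2356 genes past a log2 of 1 in both models, 886 were higher in both, 1315 were lower in both and 155 had opposite signs. Of those 155, 132 were higher in AOM/DSS and lower in ApcMin/+ adenomas. Among genes called higher, the difference was larger in ApcMin/+ for 70.1%, with medians of 0.94 and 0.76. Among genes called lower it was larger in ApcMin/+ for 59.8%, with medians of -1.20 and -1.05. A direct test of the difference between models (edgeR, 4 group means) called 0 of 17218 genes, with a lowest adjusted p of 0.112 and 1369 genes (7.95%) at an unadjusted p under 0.05. DESeq2 called 180 genes in that test, and limma on FPKM called 6 or 7.

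**Figure D1:**
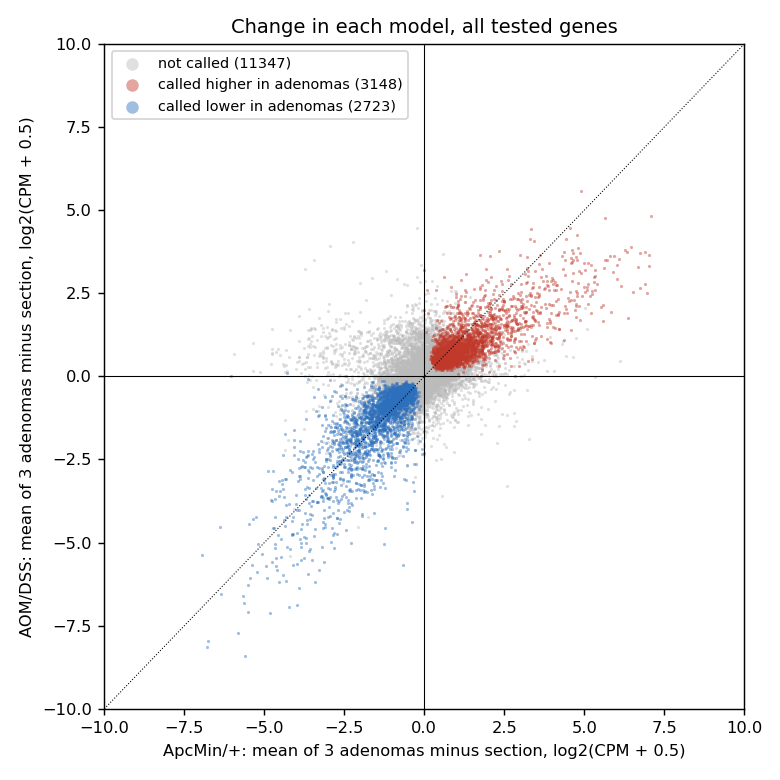
Each point is 1 of 17218 genes, with the ApcMin/+ difference on the x axis and the AOM/DSS difference on the y axis (mean of 3 adenomas minus the section, log2(CPM + 0.5)). Red points are the 3148 genes called higher and blue points the 2723 called lower; they fill the upper right and lower left, with more red points under the dotted line of equal change.

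Part of the tissue in a colon section is muscle wall, nerve and fat. Markers of muscle and nerve were lower in the adenomas of both models, and those of fat in ApcMin/+. All 16 smooth muscle genes fell (median -3.50), and their summed level was 8910 and 12300 CPM in the sections and 941 to 3140 CPM in the adenomas. Myosin light chain kinase, Mylk, had 395 CPM in the section of ApcMin/+ mice and 109, 95.2 and 161 CPM in its adenomas. In AOM/DSS it stood at 555 CPM in the section and 61.7, 86.2 and 50.6 CPM in the adenomas, with a common fold change of -2.46 ± 0.33 (adjusted p = 0.00517; -3.07 and -1.70 with a section left out). Of 17 enteric nerve and Cajal cell genes 13 fell and 0 rose (median -3.01), with sums of 522 and 327 CPM in the sections and 128 to 291 CPM in the adenomas. Kit, a receptor kinase of the interstitial cells of Cajal and of mast cells, fell by 2.29 ± 0.32 on the log2 scale, from 119 and 73.1 CPM in the sections to 10.6 to 35.2 CPM. Of 11 adipocyte genes 6 fell and 1 rose, with sums of 281 and 105 CPM in the sections and 53.2 to 99.2 CPM in the adenomas. The median difference of this list from the section was -2.23, -2.02 and -1.73 in ApcMin/+ adenomas 1 to 3 and 0.00 in each AOM/DSS adenoma. The adipocyte secreted protease gene Cfd had 33.0 CPM in the ApcMin/+ section, 0.0454 CPM in ApcMin/+ adenoma 1 and no count in the other 6 libraries, so its fold rests on 1 section. Muscle calls fell to 10 without the AOM/DSS section, and nerve calls to 2 without either section and to 8 without AOM/DSS adenoma 3. Adipocyte genes called lower numbered 1 without the ApcMin/+ section and 3 without ApcMin/+ adenoma 1 or 2, and the 1 gene called higher lost its call without either section, any ApcMin/+ adenoma or AOM/DSS adenoma 3. In such bulk samples, fewer cells of a type and less RNA per cell cannot be told apart, and the part these layers play in the changes given below was not tested.

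Epithelial identity was measured with 20 general epithelial genes. Epcam, an adhesion molecule on all intestinal epithelium, had 1754 and 1479 CPM in the sections and between 1165 and 1778 CPM in the adenomas, with a fold change of -0.13 ± 0.15 (adjusted p = 0.529). The list held 11 genes that fell and 1 that rose (median -0.54), and its sum was 19900 and 19100 CPM in the sections and 9250 to 14100 CPM in the adenomas. Keratin 8 (Krt8) fell from 3882 CPM to 1524, 1923 and 2707 CPM in ApcMin/+ and from 4095 CPM to 2423, 2202 and 2096 CPM in AOM/DSS (-0.90 ± 0.20, adjusted p = 0.0146). The tight junction gene Cldn4 went the other way, from 36.7 CPM to 493, 411 and 348 CPM and from 47.8 CPM to 267, 181 and 246 CPM (2.82 ± 0.35, adjusted p = 0.00474; 3.51 without the AOM/DSS section). Genes of the list called lower numbered 0 without the ApcMin/+ section, 1 without the AOM/DSS section and 7 without ApcMin/+ adenoma 2 or AOM/DSS adenoma 3. Krt8 lost its call without either section (adjusted p = 0.118 and 0.0773).

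**Figure D2:**
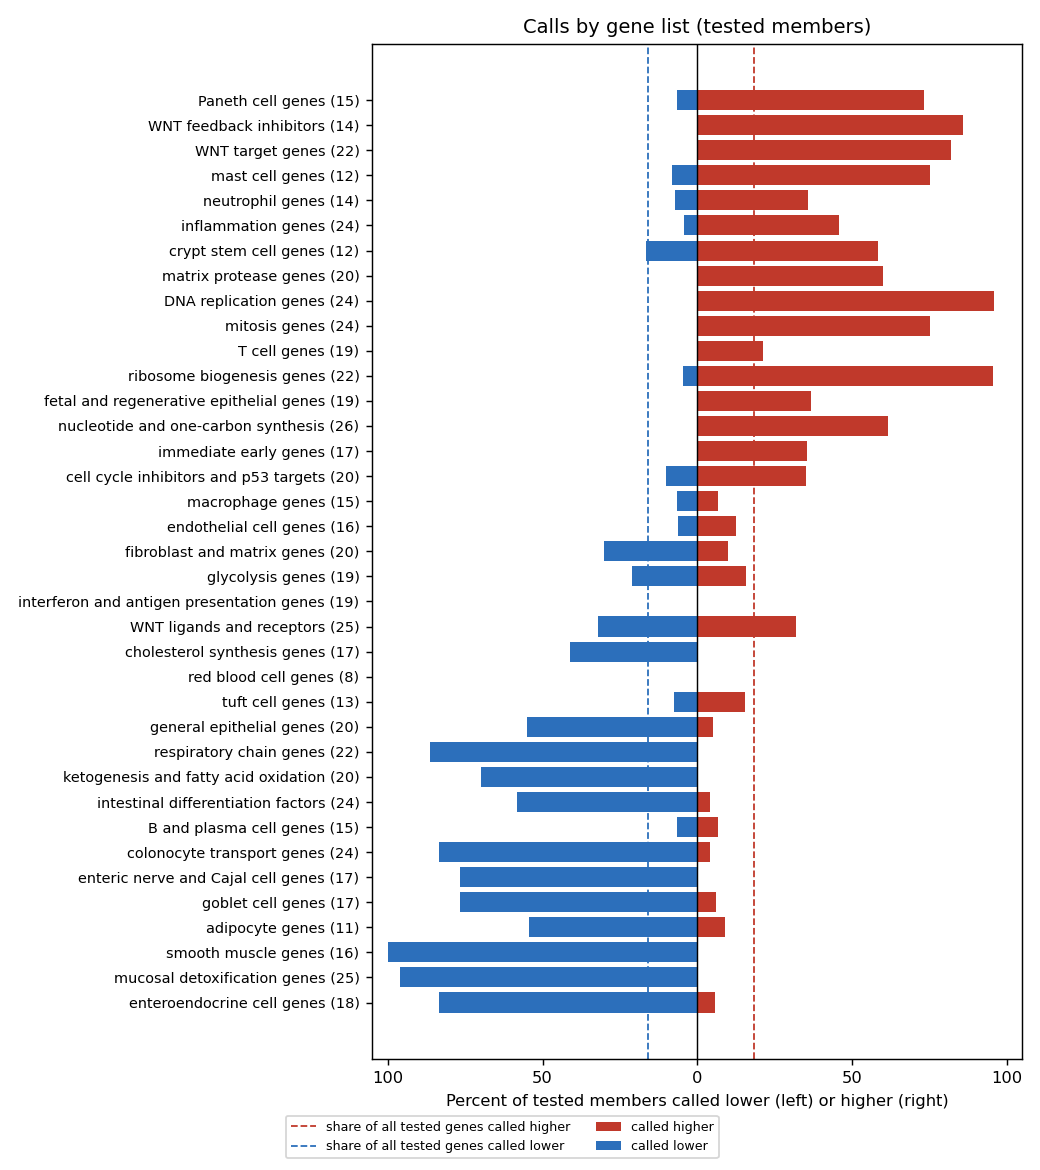
Bars give, for each of 37 gene lists, the percent of tested members called lower (left, blue) and higher (right, red) in the 6 adenomas, with the number tested in brackets. Dashed lines mark the shares over all tested genes, 15.8% lower and 18.3% higher; lists are ordered by median fold change, from Paneth cell genes at the top to enteroendocrine genes at the bottom.

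WNT feedback inhibitors are made when the pathway is active and dampen it. Of 14 tested, 12 rose and 0 fell, with a median fold change of 3.01. Axin2, a scaffold of the destruction complex, had 21.4 CPM in the section of ApcMin/+ mice and 380, 286 and 239 CPM in its adenomas. In AOM/DSS it stood at 52.1 CPM in the section and 347, 257 and 420 CPM in the adenomas. All 6 adenomas lay above both sections, at a fold change of 3.21 ± 0.37 (adjusted p = 0.00473). Rnf43, a ligase that removes WNT receptors from the membrane, went from 32.8 CPM to 312, 279 and 229 CPM in ApcMin/+ and from 47.8 CPM to 282, 214 and 356 CPM in AOM/DSS (2.80 ± 0.26, adjusted p = 0.00444). Its relative Znrf3 rose by 2.07 ± 0.24. Secreted antagonists differed among themselves. Notum, an enzyme that inactivates WNT ligands, had 1.32 CPM in the ApcMin/+ section against 274, 253 and 190 CPM in its adenomas, and 19.9 CPM against 173, 190 and 514 CPM in AOM/DSS (5.02 ± 0.99, adjusted p = 0.0101). Dkk2 rose by 4.31 ± 0.46 and Wif1 by 4.70 ± 0.87. Dkk3 rose by 0.98 ± 0.27, and Sfrp5 and Sostdc1 were not called (-1.28 ± 0.47 and -3.20 ± 1.41). By adenoma, the median difference of the list from its own section ran from 2.09 to 3.68. The count of 12 moved by less than 1.5 times with any 1 library left out, while 1 member was called lower without ApcMin/+ adenoma 3. With a section left out the fold changes of Notum were 3.87 and 7.49 and those of Wif1 3.90 (adjusted p = 0.0707) and 5.78. Without the AOM/DSS section Axin2 stood at 3.82 and Dkk2 at 4.94.

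WNT target genes beyond the inhibitors rose as well, in 18 of 22 cases with 0 lower and a median of 2.09 (10 higher without the ApcMin/+ section); Axin2 and Nkd1 are on both lists. Tcf7 and Lef1 encode transcription factors that bind β-catenin. Tcf7 had 5.56 CPM in the ApcMin/+ section and 86.0, 68.8 and 54.9 CPM in its adenomas, and 9.81 CPM against 56.6, 54.2 and 64.4 CPM in AOM/DSS (3.05 ± 0.31, adjusted p = 0.00459). Lef1 rose by 3.36 ± 0.40. The growth regulator Myc rose less, from 30.3 CPM to 62.9, 62.9 and 56.4 CPM and from 44.2 CPM to 112, 91.3 and 97.2 CPM (1.09 ± 0.12, adjusted p = 0.00473). Ccnd1, the cyclin that drives entry into the cell cycle, rose by 1.38 ± 0.17 and its kinase partner Cdk4 by 1.39 ± 0.29. The receptor genes Ephb2 and Ephb3, which place cells along the crypt, were not called (0.37 ± 0.12 and 0.45 ± 0.24). Ctnnb1, which encodes β-catenin, rose by 0.82 ± 0.17 (adjusted p = 0.0126), from 940 CPM to 1908, 2055 and 1650 CPM and from 764 CPM to 1088, 1101 and 1433 CPM, and lost its call without the ApcMin/+ section (adjusted p = 0.125), as did Cdk4 (0.110). Lef1 stood at 2.73 and 4.25 with a section left out, and Tcf7 at 3.65 without the AOM/DSS section. Apc was not called, at 132 and 98.8 CPM in the sections and 107 to 154 CPM in the adenomas (0.26 ± 0.15, adjusted p = 0.203).

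Promoters of 300 bases are shown for 3 of the genes that rose, because each holds a TCF/LEF core on one strand. RefSeq sequences on GRCm38.p6, 250 bases before to 50 after the start, were searched on both strands for CTTTGAT and CTTTGAA, and 943 of 15059 promoters of tested genes held a match (6.26%). A match is a description of letters, not a site of binding. Capitals mark the match in each promoter. Sp5, a zinc finger transcription factor gene among the WNT feedback inhibitors, has it 104 bases before the start (chr2:70474673-70474972, plus strand). Tnfrsf19, which encodes a receptor found on crypt stem cells, has it 202 bases before (chr14:61037938-61038237, minus strand), and Cdk4 has it 52 bases before (chr10:127063285-127063584, plus strand).
Sp5: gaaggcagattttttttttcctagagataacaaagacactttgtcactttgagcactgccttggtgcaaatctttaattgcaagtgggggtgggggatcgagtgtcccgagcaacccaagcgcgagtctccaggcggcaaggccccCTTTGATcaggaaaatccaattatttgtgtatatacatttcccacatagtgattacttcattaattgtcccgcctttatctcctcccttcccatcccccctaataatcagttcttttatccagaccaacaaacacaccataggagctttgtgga
Tnfrsf19: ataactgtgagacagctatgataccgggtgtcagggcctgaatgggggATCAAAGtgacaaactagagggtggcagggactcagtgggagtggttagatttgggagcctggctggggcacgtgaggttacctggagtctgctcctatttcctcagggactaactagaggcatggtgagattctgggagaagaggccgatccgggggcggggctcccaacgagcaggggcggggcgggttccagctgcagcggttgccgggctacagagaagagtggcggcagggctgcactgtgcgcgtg
Cdk4: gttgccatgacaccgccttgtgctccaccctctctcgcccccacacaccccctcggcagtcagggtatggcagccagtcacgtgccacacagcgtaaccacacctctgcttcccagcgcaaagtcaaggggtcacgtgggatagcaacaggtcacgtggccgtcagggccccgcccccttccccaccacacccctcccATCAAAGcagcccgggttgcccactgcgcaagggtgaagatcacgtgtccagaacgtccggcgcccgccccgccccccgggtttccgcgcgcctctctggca
Sp5 had 0.344 CPM in the ApcMin/+ section and 31.6, 31.2 and 23.0 CPM in its adenomas, and 3.65 CPM against 27.5, 16.5 and 32.4 CPM in AOM/DSS (3.88 ± 0.77, adjusted p = 0.0103; 2.80 and 6.35 with a section left out). Tnfrsf19 went from 4.24 CPM to 63.2, 64.8 and 44.2 CPM and from 8.16 CPM to 29.0, 49.0 and 78.6 CPM (3.16 ± 0.48), with an adjusted p of 0.00622, or 0.0519 without the ApcMin/+ section, and a fold change of 3.76 without the AOM/DSS section. The promoters of Axin2, Nkd1, Wif1, Dkk2 and Rnf43 in the same table held no match in this window. Only 68.7% of tested genes have a promoter in the table, too few for a comparison of genes that rose with the rest.

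The ligands and receptors of the pathway did not move in 1 direction. Of 25, 8 rose and 8 fell (median -0.26, or 0.02 with limma on FPKM). Among ligands, Wnt6 went from 0.974 CPM to 64.7, 45.1 and 42.5 CPM in ApcMin/+ and from 3.70 CPM to 23.2, 20.6 and 38.2 CPM in AOM/DSS (3.91 ± 0.68, adjusted p = 0.00788). Wnt10a rose by 4.51 ± 0.90, and Wnt5a, a ligand made in the stroma, by 1.56 ± 0.26. Rspo3, a stromal ligand that amplifies WNT signals and is needed by crypt stem cells, fell from 10.5 CPM to 1.54, 1.82 and 4.81 CPM and from 9.51 CPM to 0.300, 0.373 and 0.640 CPM (-3.37 ± 0.63, adjusted p = 0.00913). Rspo1 fell by 3.33 ± 0.77 on the log2 scale. Among their receptors, Lgr6 rose by 4.37 ± 0.55 while Lgr4 fell by 0.73 ± 0.19. Lgr6 differed in level between models, at 0.287 and 9.91 CPM in the sections and 14.2 to 27.6 and 98.8 to 168 CPM in the adenomas. The frizzled receptors Fzd5 and Fzd8 fell by 1.45 ± 0.31 and 1.26 ± 0.24. In a fit that omitted the ApcMin/+ section, 3 of the list rose and 1 fell, without the AOM/DSS section 0 fell, and Wnt5a lost its call without the ApcMin/+ section (adjusted p = 0.0692). Rspo1, Lgr4, Fzd5 and Fzd8 lost theirs without either section (adjusted p from 0.0529 to 0.135), and Rspo3 without the AOM/DSS section (0.0828). With a section left out Wnt6 stood at 2.88 and 5.69, Wnt10a at 3.23 and 7.66 and Rspo3 at -4.42 and -1.95. Lgr6 stood at 6.08 without the AOM/DSS section, and Rspo1 at -4.10 without ApcMin/+ adenoma 3.

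Crypt stem cell genes rose in 7 of 12 cases and fell in 2 (16.7%, near the 15.8% of all tested genes), with a median of 1.36. Their summed level was 1320 CPM in the ApcMin/+ section and 1420, 1620 and 1310 CPM in its adenomas. In AOM/DSS the sum was 999 CPM in the section and 998, 1020 and 1620 CPM in the adenomas. The receptor Lgr5, which marks cycling crypt stem cells, had 14.7 CPM in the ApcMin/+ section and 101, 125 and 57.9 CPM in its adenomas. In AOM/DSS it had 3.85 CPM in the section and 17.5, 32.1 and 118 CPM in the adenomas. Every adenoma was above both sections, but the AOM/DSS adenomas were spread widely and the call (3.19 ± 0.84, adjusted p = 0.0243) was lost without the ApcMin/+ section (3.85, adjusted p = 0.104) or the AOM/DSS section (adjusted p = 0.137). Ascl2, a transcription factor of crypt base cells, rose by 2.26 ± 0.33, and Msi1, an RNA-binding protein gene of stem cells, by 3.04 ± 0.62. Aqp4, a water channel gene also on the colonocyte list, fell by 3.95 ± 0.86 on the log2 scale. Without the ApcMin/+ section 0 genes of the list were called, and without the AOM/DSS section 3 rose and 0 fell. Fetal and regenerative epithelial genes, which return when the lining heals, rose in 7 of 19 cases with 0 lower (median 0.72; 2 higher without the ApcMin/+ section). Msln, a surface protein gene, went from 0.974 CPM to 15.2, 9.40 and 13.6 CPM and from 0.400 CPM to 6.39, 10.5 and 5.29 CPM (3.91 ± 0.43, adjusted p = 0.00473). Clu, a marker of regenerating crypts, rose by 2.27 ± 0.58, and Ly6a, another, was not called (-0.01 ± 0.36). Msi1, Aqp4 and Clu lost their calls without either section (adjusted p from 0.0533 to 0.142), and Ascl2 without the ApcMin/+ section (0.0516). Aqp4 stood at -4.65 without ApcMin/+ adenoma 3 and Clu at 2.90 without the ApcMin/+ section.

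Paneth cells are secretory cells of the small intestine that are rare in normal mouse colon. Of 15 Paneth cell genes 11 rose and 1 fell, with a median of 3.87, the highest of the 37 lists. Lysozyme (Lyz1) went from 39.0 CPM to 1163, 2695 and 1222 CPM in ApcMin/+ and from 232 CPM to 1983, 1782 and 1282 CPM in AOM/DSS (3.85 ± 0.74, adjusted p = 0.00977). The matrilysin gene Mmp7, which is also a WNT target, went from 3.67 CPM to 492, 617 and 255 CPM and from 61.8 CPM to 523, 670 and 638 CPM (4.51 ± 0.93). The α-defensin Defa22 rose by 4.94 ± 0.57 and Defa24 rose as well, though defensin genes are near copies and their counts are uncertain between them. The antimicrobial lectins Reg3b and Reg3g were not called (-0.78 and 0.89). With the ApcMin/+ section left out, 7 of the list rose, and without the AOM/DSS section 0 fell. With a section left out Lyz1 stood at 2.86 and 5.44, Mmp7 at 3.31 and 6.95 and Defa24 at 3.42 and 5.47, and Defa22 stood at 6.26 without the AOM/DSS section.

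**Figure D3:**
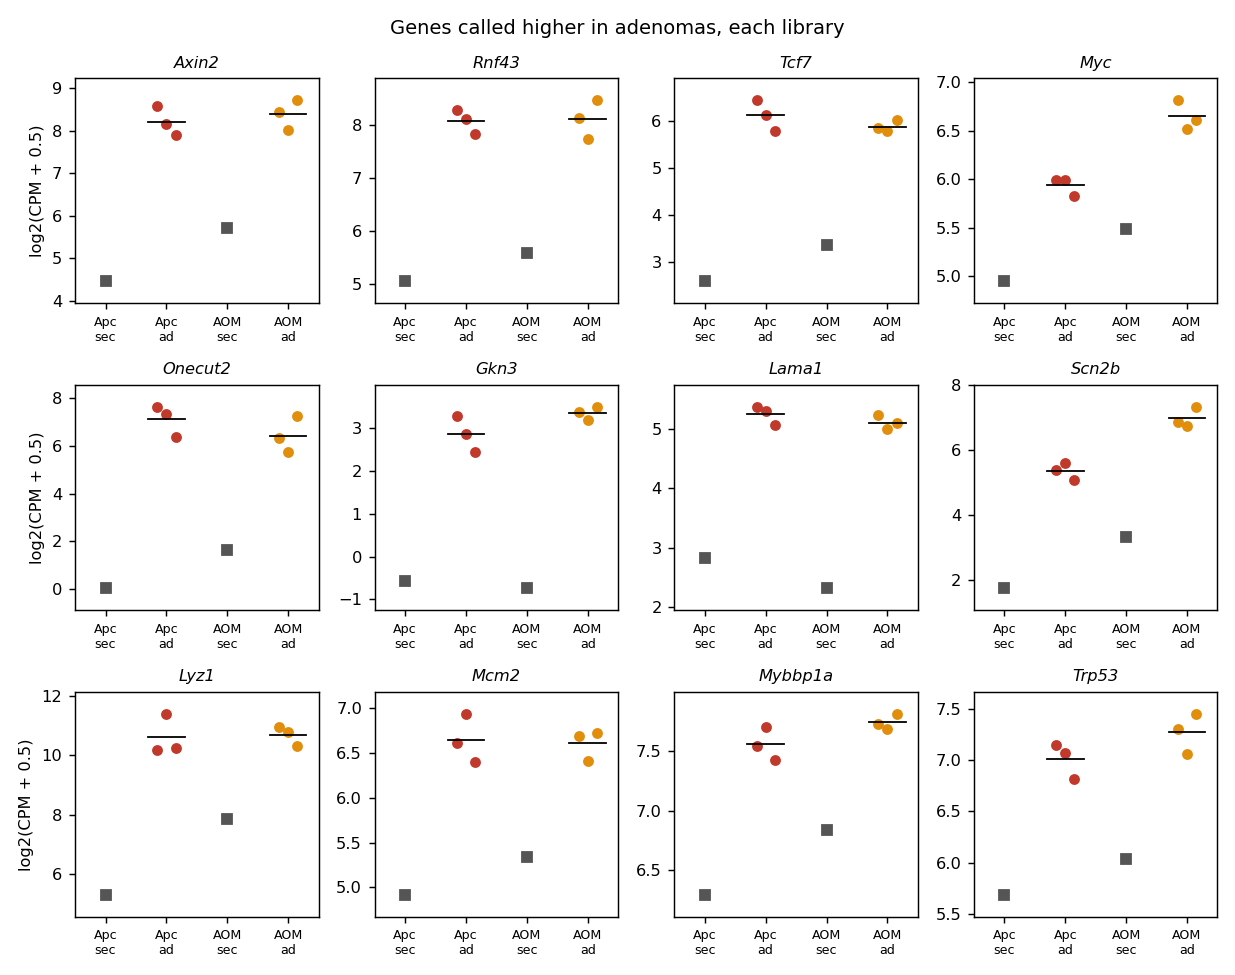
Each panel shows 1 gene called higher, with log2(CPM + 0.5) on the y axis for the section (square) and the 3 adenomas (dots, with a line at their mean) of ApcMin/+ (Apc) and AOM/DSS (AOM). For Axin2, Rnf43, Tcf7, Myc, Lyz1 and the 7 other genes all 6 adenomas lie above both sections.

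Genes of cell division rose together. Of 24 DNA replication genes 23 rose and 0 fell (median 1.16). Mcm2, a subunit of the replicative helicase, went from 29.7 CPM to 96.9, 122 and 83.8 CPM and from 40.0 CPM to 103, 84.6 and 105 CPM (1.51 ± 0.20, adjusted p = 0.00508). Of 24 mitosis genes 18 rose and 0 fell (median 1.08). Top2a, the topoisomerase of dividing cells, went from 68.3 CPM to 338, 369 and 213 CPM and from 131 CPM to 234, 292 and 298 CPM (1.57 ± 0.32, adjusted p = 0.0113). The median difference of the mitosis list from the section of its own model was 1.33 to 1.91 in ApcMin/+ adenomas and 0.58 to 0.65 in AOM/DSS adenomas, and no member was called in the test between models. Of 26 genes of nucleotide and one-carbon synthesis 16 rose and 0 fell (median 0.62), among them both tested ribonucleotide reductase subunits, Rrm1 (1.18 ± 0.20) and Rrm2 (1.95 ± 0.28), and the serine synthesis gene Phgdh (1.55). Of 22 ribosome biogenesis genes 21 rose and 1 fell (median 0.81). Mybbp1a, a nucleolar protein gene, went from 78.0 CPM to 186, 208 and 171 CPM and from 114 CPM to 211, 205 and 224 CPM (1.08 ± 0.14, adjusted p = 0.00475). In a fit that omitted the ApcMin/+ section, the genes that rose numbered 5 for replication, 0 for mitosis, 1 for nucleotide synthesis and 4 for ribosome biogenesis. Without the AOM/DSS section ribosome biogenesis had 9 higher and 0 lower, and 1 nucleotide gene was called lower without AOM/DSS adenoma 2. Top2a, Rrm1 and Phgdh lost their calls without the ApcMin/+ section (adjusted p = 0.0955, 0.0687 and 0.0857). With a section left out Phgdh stood at 0.95 and 2.32, and Top2a stood at 2.16 without the AOM/DSS section.

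Some brakes on the cell cycle rose at the same time. Of 20 cell cycle inhibitors and p53 targets 7 rose and 2 fell (median 0.47). Trp53, which encodes p53, went from 50.9 CPM to 142, 134 and 112 CPM and from 64.9 CPM to 158, 133 and 175 CPM (1.30 ± 0.15, adjusted p = 0.00473). Cdkn2a, the locus of p16 and p19Arf, went from 0.115 CPM to 8.81, 15.9 and 10.7 CPM and from 1.30 CPM to 17.5, 8.11 and 8.66 CPM (4.14 ± 0.81, adjusted p = 0.0100). The p53 target Cdkn1a, which encodes p21, was not called (-0.18 ± 0.36), nor was Ccng1 (0.19). Cdkn1b, which encodes p27, fell by 0.52 ± 0.13. Without the ApcMin/+ section 4 of the list rose and 0 fell, and without the AOM/DSS section 3 rose and 1 fell. Immediate early genes respond to growth signals within minutes. Their median difference from the section was 0.64, 0.82 and 1.06 in ApcMin/+ and 0.18, 0.03 and 0.12 in AOM/DSS adenomas. Over all tested genes it was 0.00 to 0.02 and 0.07 to 0.10. In the common fit 6 of 17 immediate early genes rose with 0 lower (median 0.50). Jun rose by 1.46 ± 0.26 and Fosl1 by 2.60 ± 0.43, while Fos was not called (0.23 ± 0.60). With the ApcMin/+ section left out, 0 of them were called, and 1 was called lower without ApcMin/+ adenoma 3 or AOM/DSS adenoma 1. Cdkn1b, Jun and Fosl1 lost their calls without the ApcMin/+ section (adjusted p = 0.246, 0.0663 and 0.0572). Cdkn2a stood at 3.13 and 6.61 with a section left out, and Fosl1 at 3.28 without the AOM/DSS section.

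The transcription factors that direct intestinal differentiation were lower in adenomas, with 14 of 24 called lower and 1 higher (median -1.16). Cdx2, the factor that sets intestinal identity, had 62.5 CPM in the ApcMin/+ section and 1.32, 0.665 and 11.2 CPM in its adenomas. In AOM/DSS it had 56.1 CPM in the section and 8.02, 17.7 and 7.72 CPM in the adenomas (-3.17 ± 0.86, adjusted p = 0.0267). The vitamin D receptor gene Vdr fell by 2.49 ± 0.40, Klf4, a factor of differentiated cells, by 2.68 ± 0.52 and Hnf4a by 0.96 ± 0.25. Prdm1, a repressor expressed in the immature intestine of mice, was the member that rose (1.93 ± 0.26, adjusted p = 0.00527). Genes of this list called lower numbered 1 without the ApcMin/+ section and 5 without the AOM/DSS section. In a fit that omitted the ApcMin/+ section, Vdr and Hnf4a had adjusted p of 0.0713 and 0.266. Klf4 lost its call without either section (0.0629 and 0.0781). Cdx2 lost its call without either section (-2.33 and -3.83, adjusted p = 0.244 and 0.0710), without AOM/DSS adenoma 1 (0.0510) or without AOM/DSS adenoma 3 (0.0545), and stood at -4.35 without ApcMin/+ adenoma 3.

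Genes for the absorptive work of the colonocyte had some of the largest decreases. Of 24 colonocyte transport genes 20 fell and 1 rose (median -2.66). The water channel gene Aqp8 had 568 CPM in the ApcMin/+ section and 7.72, 0.266 and 22.8 CPM in its adenomas. In AOM/DSS it had 245 CPM in the section and 0.0858, 1.65 and 0.256 CPM in the adenomas (-7.28 ± 1.21, adjusted p = 0.00696). Slc26a3, the chloride and bicarbonate exchanger of the colon surface, went from 481 CPM to 4.36, 0.266 and 52.5 CPM and from 273 CPM to 1.85, 5.23 and 1.36 CPM (-5.76 ± 1.27). Car4, a membrane carbonic anhydrase gene, fell by 7.23 ± 1.28 on the log2 scale. The sodium and proton exchanger Slc9a3 rose, from 21.8 CPM to 122, 92.3 and 77.3 CPM and from 10.3 CPM to 71.4, 92.3 and 93.4 CPM (2.57 ± 0.29, adjusted p = 0.00473). ApcMin/+ adenoma 3 had the highest level of the 6 adenomas for Aqp8, Slc26a3 and Car4 and still lay below both sections. Genes of the list called lower numbered 2 without the ApcMin/+ section and 8 without the AOM/DSS section. Slc26a3 lost its call without either section (-6.62 and -4.66, adjusted p = 0.0752 and 0.0971), and Car4 without the AOM/DSS section (-5.55, adjusted p = 0.0525; -8.48 without the other). Aqp8 kept its call without either section, at -8.60 and -5.79. Without ApcMin/+ adenoma 3 Aqp8, Slc26a3 and Car4 stood at -7.88, -7.15 and -8.13.

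Detoxifying enzymes of the mucosa fell in 24 of 25 cases with 0 higher (median -3.60). Ugt1a1, which conjugates bilirubin and drugs, went from 50.8 CPM to 3.86, 4.83 and 8.88 CPM and from 53.6 CPM to 4.03, 5.71 and 6.48 CPM (-3.21 ± 0.29, adjusted p = 0.00444). It shares exons with other Ugt1a genes, so reads may be split between them. Maob, a monoamine oxidase gene, fell from 52.8 CPM to 2.22, 2.75 and 8.01 CPM and from 21.2 CPM to 1.12, 1.76 and 2.26 CPM (-3.62 ± 0.44, adjusted p = 0.00474). The glutathione transferase Gsta4 was not called (0.48 ± 0.31). Genes called lower numbered 6 without the ApcMin/+ section and 15 without the AOM/DSS section, and the median difference by adenoma ran from -4.84 to -2.19.

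Colonocytes draw much of their energy from oxidising short-chain fatty acids in mitochondria. Of 20 genes of ketogenesis and fatty acid oxidation 14 fell and 0 rose (median -0.92; 3 lower and 1 higher without the ApcMin/+ section). Acads, the short-chain acyl-CoA dehydrogenase, went from 135 CPM to 66.0, 55.5 and 75.5 CPM and from 117 CPM to 56.4, 52.7 and 48.7 CPM (-1.09 ± 0.12, adjusted p = 0.00473). Of 22 respiratory chain genes 19 fell and 0 rose (median -0.69; 5 lower without the ApcMin/+ section, and 1 higher without ApcMin/+ adenoma 2 or 3). With limma on FPKM 12 or 8 of them fell and 1 rose. Sdhb, the iron-sulfur subunit of complex II, went from 225 CPM to 98.9, 129 and 123 CPM and from 221 CPM to 104, 98.6 and 97.6 CPM (-1.05 ± 0.12, adjusted p = 0.00473). The mitochondrially encoded mt-Co1 fell by 0.91 ± 0.17 (adjusted p = 0.00887, or 0.111 without the ApcMin/+ section). Of 19 glycolysis genes 3 rose and 4 fell (15.8% and 21.1%), shares near the 18.3% and 15.8% of all tested genes, with a median of -0.20, or 0.14 with limma on FPKM. Slc16a3, which exports lactate, rose by 2.20 ± 0.24, and Ldha, which makes it, was not called (-0.21). Of 17 cholesterol synthesis genes 7 fell and 0 rose (median -0.32). Without the ApcMin/+ section 1 glycolysis gene rose and 0 fell, and 0 cholesterol genes fell, and without the AOM/DSS section 2 glycolysis genes and 1 cholesterol gene fell.

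Genes of the other secretory cells were mostly lower. Of 17 goblet cell genes 13 fell and 1 rose (median -3.08). The mucin gene Muc2 had 6114 CPM in the ApcMin/+ section and 145, 125 and 2483 CPM in its adenomas, and 4043 CPM against 370, 346 and 76.9 CPM in AOM/DSS (-3.40 ± 1.06, adjusted p = 0.0420). All 6 adenomas were below both sections, with ApcMin/+ adenoma 3 closest to them. Spdef and Atoh1, transcription factors of secretory cells, fell by 3.08 ± 0.66 and 2.83 ± 0.68. Ang4, an antimicrobial ribonuclease gene made by goblet and Paneth cells of mice, was the member that rose (2.16 ± 0.45). Of 18 enteroendocrine genes 15 fell and 1 rose, with the lowest median fold change of the 37 lists (-4.31). On log2(CPM + 0.5) their median difference from the section was -2.08 in ApcMin/+ and -2.71 in AOM/DSS. It was not the lowest there, as mucosal detoxification genes had -3.98 and -3.1. The proglucagon gene Gcg went from 61.2 CPM to 0.182, 0.443 and 4.40 CPM and from 32.9 CPM to 0.172, 0.320 and 0 CPM (-6.41 ± 1.08, adjusted p = 0.00717). Neurog3, the factor that starts the enteroendocrine fate, fell by 4.37 ± 0.83 on the log2 scale. The peptide gene Pyy fell in the common fit (-4.26 ± 1.16, adjusted p = 0.0269), but its ApcMin/+ adenomas overlapped their section, at 95.1, 176 and 68.8 CPM against 167 CPM, while AOM/DSS adenomas had 1.37, 2.83 and 0.853 CPM against 103 CPM. Isl1, a homeobox factor gene of hormone cells, was the member that rose (2.04 ± 0.64, adjusted p = 0.0422). Isl1 lost its call without either section (1.36 and 2.92), without ApcMin/+ adenoma 1 or 2, or without AOM/DSS adenoma 1 or 3 (adjusted p from 0.0578 to 0.279). Goblet genes called lower numbered 1 without the ApcMin/+ section, where 0 rose, and 2 without the AOM/DSS section, where enteroendocrine genes called lower numbered 4. Muc2 kept its call only without ApcMin/+ adenoma 3 (-4.76), with adjusted p from 0.0564 to 0.236 when any other library was left out and a fold change of -2.73 without the AOM/DSS section. Pyy kept it only when an ApcMin/+ library was left out, at -5.96 without that section and -0.56 (adjusted p = 0.529) without the AOM/DSS section. Spdef and Atoh1 lost theirs without either section (adjusted p from 0.0795 to 0.122) and stood at -3.72 and -3.56 without ApcMin/+ adenoma 3. Neurog3 stood at -5.95 and, with an adjusted p of 0.0784, at -2.82 with a section left out, and Ang4 lost its call without the ApcMin/+ section (0.113). Gcg kept its call in every setting, at -7.66 and -5.19 with a section left out and -7.62 without ApcMin/+ adenoma 3.

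Tuft cell genes showed no shared direction, with 2 of 13 higher (15.4%, against 18.3% of all tested genes) and 1 lower (7.69% against 15.8%; median -0.46, or 0.51 without the ApcMin/+ section). The taste channel gene Trpm5 fell from 7.45 CPM to 1.18, 0.975 and 1.19 CPM and from 2.85 CPM to 0.257, 0.320 and 0.426 CPM (-2.90 ± 0.28, adjusted p = 0.00452), a call lost with limma on FPKM with 1 added (adjusted p = 0.0785) or 0.1 added (-1.60, adjusted p = 0.0849). Avil, an actin-binding protein gene used as a tuft cell marker, rose from 6.53 CPM to 180, 175 and 105 CPM and from 15.5 CPM to 123, 95.9 and 190 CPM (3.75 ± 0.49, adjusted p = 0.00508). Dclk1, the tuft cell kinase, was not called (-0.95 ± 0.35, adjusted p = 0.0682). With any of 6 libraries left out, the 2 sections, ApcMin/+ adenomas 1 and 2 and AOM/DSS adenomas 1 and 2, 1 tuft gene rose, and without AOM/DSS adenoma 2 there were 2 lower. Avil stood at 3.14 and 4.55 with a section left out.

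**Figure D4:**
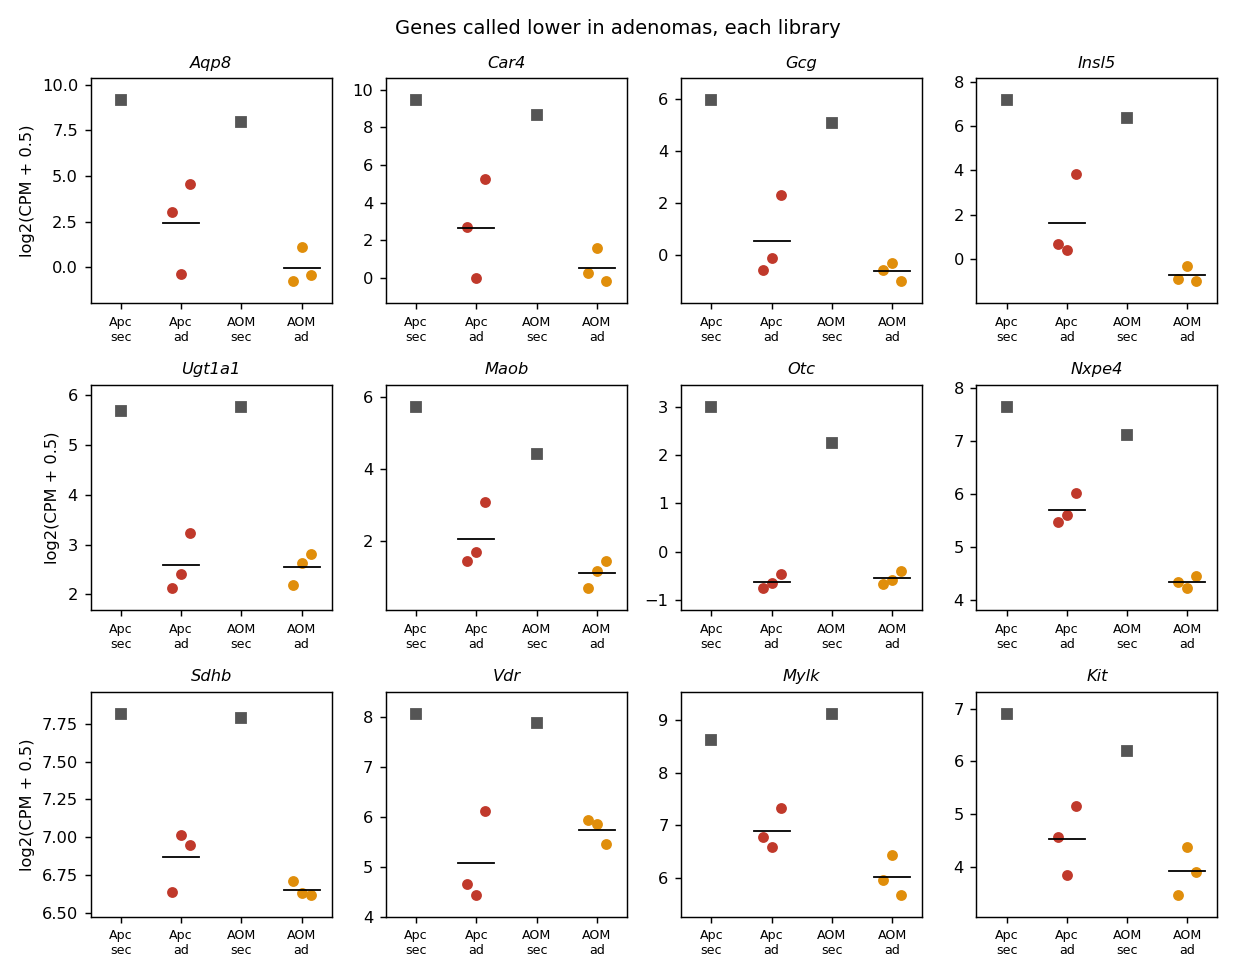
Each panel shows 1 gene called lower, with log2(CPM + 0.5) on the y axis for the section (square) and the 3 adenomas (dots, with a line at their mean) of ApcMin/+ (Apc) and AOM/DSS (AOM). All 6 adenomas lie below both sections in every panel, and ApcMin/+ adenoma 3 is the highest red dot in every panel except Sdhb.

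Enzymes that remodel the matrix rose in 12 of 20 cases with 0 lower (median 1.34; 3 higher without the ApcMin/+ section). The stromelysin Mmp10 went from 4.18 CPM to 389, 563 and 242 CPM in ApcMin/+ and from 6.86 CPM to 89.5, 83.6 and 123 CPM in AOM/DSS (4.91 ± 0.76, adjusted p = 0.00651). The membrane protease Mmp14 rose by 1.39 ± 0.20 and the urokinase gene Plau by 1.29 ± 0.23. Fibroblast and matrix genes went both ways, with 2 of 20 higher (10.0%, against 18.3% of all tested genes) and 6 lower (30.0% against 15.8%). Their median was -0.16, or 0.00 with limma on FPKM. Col1a1, a chain of fibrillar collagen, was not called (0.50 ± 0.23). Lum, a matrix proteoglycan gene, fell from 192 CPM to 18.6, 44.8 and 62.4 CPM and from 50.9 CPM to 2.45, 1.97 and 4.86 CPM (-3.22 ± 0.53, adjusted p = 0.00689). With the ApcMin/+ section left out, 1 fibroblast gene rose and 3 fell, and without the AOM/DSS section 4 rose and 1 fell. Of 16 endothelial genes 2 rose and 1 fell (12.5% and 6.25%, under the 18.3% and 15.8% of all tested genes). The median was 0.05, or -0.01 with DESeq2 or its size factors. The 2 that rose were Eng and Prox1, the latter also on the WNT target list. Pecam1, which marks all vessels, was not called (-0.03 ± 0.19), and with single libraries left out 0 to 3 endothelial genes rose and 0 to 2 fell. Mmp14, Plau, Eng and Prox1 lost their calls without the ApcMin/+ section (adjusted p = 0.0515, 0.0842, 0.307 and 0.0905), Eng also without ApcMin/+ adenoma 1 or 2 or AOM/DSS adenoma 1 (from 0.0505 to 0.0592), and Lum without the AOM/DSS section (0.0524). With a section left out Mmp10 stood at 3.84 and 6.57, Lum at -4.03 and -2.19 and Prox1 at 3.60 and 6.02.

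Genes of inflammation rose in part. Of 24, 11 rose and 1 fell (median 1.87). The cytokine gene Il1b went from 15.6 CPM to 75.3, 68.7 and 48.7 CPM and from 8.46 CPM to 28.0, 62.1 and 39.8 CPM (2.19 ± 0.34, adjusted p = 0.00653), with an adjusted p of 0.0515 without the ApcMin/+ section. Saa3, an acute-phase protein gene, went from 2.06 CPM to 122, 124 and 73.1 CPM and from 2.90 CPM to 34.3, 26.6 and 31.8 CPM (4.38 ± 0.58, adjusted p = 0.00517). Its relative Saa1 fell from 1768 CPM to 75.1, 19.5 and 336 CPM and from 1430 CPM to 18.2, 133 and 44.9 CPM (-4.07 ± 0.93). The summed level of the list was 1980 and 2030 CPM in the sections and 533 to 1220 CPM in the adenomas, so the sum and the median moved in opposite directions. Ptgs2, which encodes cyclooxygenase 2, was not called (1.55 ± 0.66, adjusted p = 0.106), with 5.22 CPM against 30.8, 68.3 and 56.2 CPM in ApcMin/+ and 7.16 CPM against 8.20, 11.2 and 9.72 CPM in AOM/DSS. Inflammation genes that rose numbered 1 without the ApcMin/+ section and 7 without ApcMin/+ adenoma 2. Saa1 lost its call without either section (adjusted p = 0.0930 and 0.103) and stood at -4.84 without ApcMin/+ adenoma 3, and Saa3 stood at 3.41 and 5.68 with a section left out.

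Markers of immune cells differed by cell type. Neutrophil genes had a median difference from the section of 2.49, 1.96 and 1.37 in ApcMin/+ and 0.27, 1.21 and 0.52 in AOM/DSS adenomas. Of 14 neutrophil genes 5 rose and 1 fell (median 1.88; 0 called without the ApcMin/+ section, and 0 lower with the AOM/DSS section or any of 4 adenomas left out), and their sum was 614 and 910 CPM in the sections and 162 to 871 CPM in the adenomas. Of 12 mast cell genes 9 rose and 1 fell (median 2.02), and Cpa3, a mast cell protease gene, went from 1.89 CPM to 7.04, 5.36 and 4.44 CPM and from 4.55 CPM to 19.1, 15.3 and 20.9 CPM (1.80 ± 0.28, adjusted p = 0.00644). In a fit that omitted the ApcMin/+ section, 1 mast cell gene rose and without the AOM/DSS section 3. Of 15 macrophage genes 1 rose and 1 fell, and of 19 T cell genes 4 rose (21.1%, near the 18.3% of all tested genes) and 0 fell, among them the regulatory T cell gene Foxp3 (2.15 ± 0.54, adjusted p = 0.0210, with adjusted p of 0.0891 and 0.158 without a section, 0.0578 with limma on FPKM with 1 added and 0.210 with no model term). For macrophage genes each share was 6.67%, under the 18.3% and 15.8% of all tested genes. The median difference of the T cell list from the section was 0.29, -0.18 and -0.23 in ApcMin/+ adenomas 1 to 3 and 0.76, 2.08 and 1.19 in AOM/DSS adenomas 1 to 3. T cell genes that rose numbered 1 without either section, and macrophage calls ran from 0 to 1 higher and 0 to 2 lower with single libraries left out.

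Genes of antibody-forming cells and of antigen presentation varied between adenomas. Of 15 B and plasma cell genes 1 rose and 1 fell (6.67% each, under the 18.3% and 15.8% of all tested genes), with a median of -1.98. The median difference of that list from the section was -2.52, -3.54 and -2.81 in ApcMin/+ adenomas 1 to 3 and -0.42, 2.48 and -0.72 in AOM/DSS adenomas 1 to 3. Of 19 interferon and antigen presentation genes 0 were called by edgeR, by DESeq2 or by limma, and 0 had an unadjusted p under 0.05 in edgeR (median -0.22, or 0.04 with limma on FPKM), and AOM/DSS adenoma 2 stood apart there too, at 1.55 against -0.99 to -0.04 in the other adenomas. Without AOM/DSS adenoma 2, 9 B and plasma cell genes and 5 interferon genes were called lower, and with any other library left out 0 B and plasma cell genes were. Without the ApcMin/+ section both medians were above 0, at 1.25 and 0.65. Of 8 red blood cell genes 0 were called by edgeR, DESeq2 or limma, with 0 at an unadjusted p under 0.05 in edgeR (1 was lower without ApcMin/+ adenoma 2), and their sum was 1010 to 1810 CPM in ApcMin/+ libraries and 21.7 to 41.6 CPM in AOM/DSS libraries.

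**Figure D5:**
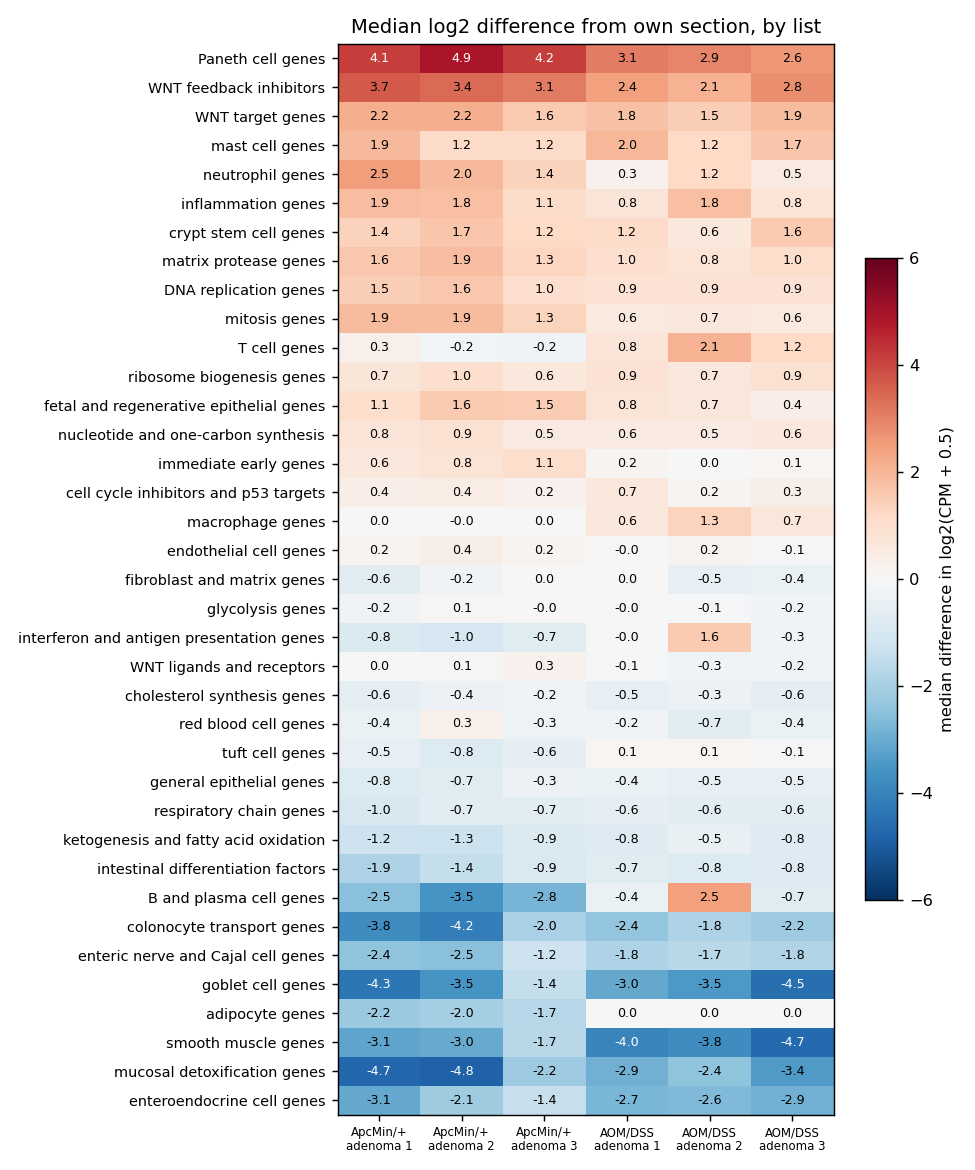
Each cell gives the median log2(CPM + 0.5) difference of 1 adenoma from the section of its own model over the tested members of a list, red above 0 and blue below. WNT feedback inhibitors run from 2.09 to 3.68 over the 6 adenomas, while B and plasma cell genes run from -3.54 to 2.48.

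Several of the genes called with the smallest p were on none of the lists. Lama1, a laminin chain of basement membranes, had 6.59 CPM in the ApcMin/+ section and 40.8, 38.7 and 33.0 CPM in its adenomas, and 4.50 CPM against 37.0, 31.5 and 33.6 CPM in AOM/DSS (2.70 ± 0.18, adjusted p = 0.00401). Scn2b, a sodium channel subunit gene, went from 2.87 CPM to 41.6, 48.2 and 33.1 CPM and from 9.66 CPM to 117, 106 and 161 CPM (3.78 ± 0.25, adjusted p = 0.00401). Dusp4, a phosphatase that switches off MAP kinases, rose by 3.20 ± 0.23, the integrin subunit Itgb8 by 2.91 ± 0.21 and the actin regulator Evl by 2.42 ± 0.18. The chemokine Cxcl14 went from 14.8 CPM to 141, 166 and 153 CPM and from 19.4 CPM to 119, 108 and 96.3 CPM (2.89 ± 0.24). Downward, the urea cycle gene Otc went from 7.51 CPM to 0.0908, 0.133 and 0.229 CPM and from 4.30 CPM to 0.129, 0.160 and 0.256 CPM (-5.08 ± 0.41, adjusted p = 0.00444). These genes were called in every setting tried. The adenoma levels of Otc lie near the 0.128 to 0.172 CPM (TMM-scaled) that a count of 0 allows. Its fold change ran from -5.58 to -1.87 over the other settings.

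The largest increases were in genes with almost no counts in the sections. Tmprss6, a membrane protease gene known from the liver, had 1 count in the sections together and 1442 in the adenomas, a ratio of 409 (95% counting interval 73.3 to 16200). Aox4, an aldehyde oxidase gene, had 2 and 1193 counts, a ratio of 169 (46.7 to 1400). Prom2, which encodes a relative of the stem cell marker prominin 1, had 2 and 1055 counts, a ratio of 150 (41.3 to 1240). The intervals cover counting error only. Most of these counts came from ApcMin/+ adenomas, where Tmprss6 had 24.3, 13.7 and 20.3 CPM, Aox4 18.8, 16.2 and 13.4 CPM and Prom2 11.8, 13.5 and 16.1 CPM. In AOM/DSS adenomas Tmprss6 had 0.515, 1.71 and 4.69 CPM, Aox4 0.772, 1.97 and 2.86 CPM and Prom2 1.37, 2.77 and 2.35 CPM. Onecut2, a homeobox factor gene, had more counts behind it, with 0.516 CPM in the ApcMin/+ section against 199, 160 and 83.2 CPM in its adenomas and 2.55 CPM against 79.7, 52.6 and 151 CPM in AOM/DSS (6.20 ± 0.89, adjusted p = 0.00588). Gkn3, a gastrokine gene known from the stomach, had 0.172 CPM or less in the sections, 9.17, 6.78 and 4.95 CPM in ApcMin/+ adenomas and 9.78, 8.64 and 10.7 CPM in AOM/DSS adenomas (5.87 ± 0.48, adjusted p = 0.00444). Of these, Tmprss6 lost its call without the ApcMin/+ section (adjusted p = 0.0794). With a section left out Onecut2 stood at 5.20 and 8.14, Prom2 at 4.36 and 11.19 on the fitted scale, and without the ApcMin/+ section Aox4 stood at 8.35 and Gkn3 at 6.52.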

How the data were processed

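RNA was isolated with Trizol and sequenced as single reads from TruSeq libraries, per the labels' protocols. Per the file headers, the tables the authors deposited hold gene-level estimated counts and FPKM. One more table, of comparisons, was not used. The submitters' processing notes name the build mm9. The aligner, counter, annotation and use of strand were not given in the sources used here. Without strand, overlapping and antisense genes cannot be told apart. The lowest deposited estimated count was exactly 1 in every library and held 38.8% of the values, so the deposited counts were taken to carry an offset, so that 1 was taken off each value before rounding to whole numbers. The tables list 31189 genes, and 27 of them have a date where the symbol should be.

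Differences were tested with edgeR 4.0.16 (R 4.3.3): TMM scaling, filterByExpr with the 4 groups (at least 10 counts, total of at least 15), a quasi-likelihood fit with terms for model and tissue (5 residual degrees of freedom) and Benjamini-Hochberg adjustment over 17218 genes. The test between models used 4 group means (4 residual degrees of freedom). The SE was taken as |log2 fold change| / sqrt(F). A count of 0 allows up to 3 counts in a library, 0.132 to 0.165 CPM before TMM scaling and 0.128 to 0.172 CPM after it. Such limits and counting intervals cover counting error only. Alternatives were DESeq2 1.42.0, 2 other scalings, other filters, the counts as deposited, limma 3.58.1 on log2(FPKM + 1) and log2(FPKM + 0.1) after 1 was also subtracted from the deposited FPKM, a fit with no model term, and each library left out.

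Named genes were the 12 largest increases and 12 largest decreases (called, groups not overlapping, average log2 CPM 2 or more), the 10 with the smallest p, up to 4 of each list with the smallest p, 10 with a log2 difference of at least 2 in each model, an average log2 CPM of 4 or more and the smallest gap between models, up to 6 called in the test between models (edgeR called 0), the 6 called genes with the highest mean CPM in each direction, and Apc, Ctnnb1, Axin2, Lgr5 and Myc. Unnamed gene models and immunoglobulin segments were left out. The text names part of these 199 genes, and that part, and other list members it names, were chosen after their values were seen. The 37 lists hold 686 genes, of which 666 were tested. The samples compared and the lists were chosen with earlier results of these data known, and no list was given a test of its own. Results of some single genes are not reported here, though these genes stay in the counts. Promoters come from RefSeq on GRCm38.p6, and 11826 of the tested genes matched one by symbol.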

Additional observations from a re-analysis of the deposited data

Results flagged for a closer look

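In each of 199 named genes the 6 adenomas were searched for 1 library far from the others. Such a gap arises by chance in about 1 in 20 groups of independent values from a single population, and 10 were found. The adenomas span 2 models and the genes are not independent, so that rate cannot judge these gaps. In 8 of them ApcMin/+ adenoma 3 stood above the other 5 adenomas. These were the hormone genes Insl5 (13.6 CPM) and Gcg (4.40 CPM), the binding protein gene Igfbp2 (19.1 CPM), the enzyme genes Cyp2f2 (11.1 CPM) and Hsd3b3 (9.20 CPM), the goblet cell factor Creb3l1 (117 CPM), the muscle gene Synpo2 (45.4 CPM) and the glial gene S100b (0.595 CPM). All 8 genes fell in the common comparison, and this adenoma was also the one nearest to the sections on the first principal component. Insl5, Igfbp2 and Creb3l1 lost their calls without the AOM/DSS section, and Cyp2f2, Hsd3b3 and S100b without either section. With a section left out Insl5 moved from -7.00 to -9.48 and -4.77, and Igfbp2 from -6.26 to -8.16 and -3.30. Cyp2f2 moved from -6.11 to -9.00 and -3.76, and Hsd3b3 from -6.05 to -7.88 and -4.34. Creb3l1 moved from -2.83 to -3.43 and -2.09, and Synpo2 from -3.30 to -4.04 and -2.30. The adipocyte gene Cfd had its only count among adenomas in ApcMin/+ adenoma 1 (0.0454 CPM), below the limit that a count of 0 allows. The plasma cell receptor gene Tnfrsf17 was highest in AOM/DSS adenoma 2 (2.13 CPM), where the other 5 adenomas had 0.177 to 0.458 CPM.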

How the results depend on the processing

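No paired analysis was possible because each model has 1 section and the labels do not say which mouse each library came from. With single libraries left out, genes called higher numbered from 446 (without the ApcMin/+ section) to 3147, and genes called lower from 434 to 2802; without the AOM/DSS section they numbered 1795 and 1038. With no model term 1640 rose and 1618 fell. With limma on log2(FPKM + 1) 1692 genes fell, and 1602 with 0.1 added. DESeq2 called 3345 higher and 3263 lower. In the test between models, DESeq2 called 180 genes and limma 6 or 7 where edgeR called 0. Of 184 named genes called, none changed direction under 18 alternatives and 63 kept their call in all of them; 102 lost it without the ApcMin/+ section, 50 without the AOM/DSS section and 33 with no model term. Of the uncalled named genes reported here, 3 changed sign and were not called where they did: with single libraries left out the fold changes ran from -3.35 to 0.81 for Igj, -1.20 to 0.39 for H2-K1 and -1.31 to 0.36 for Psmb9 (highest without the ApcMin/+ section), and Psmb9 was at 0.02 with no model term. The cause was not tested.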
